A study of Mus musculus with 6 samples.

Results

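AP-1 is a family of transcription factors made of paired subunits, and its genes were followed here in the uterus of pregnant mice at day 15.5 and at day 18.5 after mating. The subunits were taken as a list of 10 genes, which are Fos, Fosb, Fosl1, Fosl2, Jun, Junb, Jund, Atf3, Maff and Batf. Probes were found for 9 of the 10 genes, 13 probes among the 45281 on the array, and Fosl1 was not analysed here. All 9 genes passed the filter on dim probes, which left 14081 genes of 28927 distinct names. RNA was hybridised to 6 Illumina bead arrays of 1 colour, 3 from each day. The labels of both groups name no treatment, genotype, strain or maternal age. The labels name the tissue as uterus, whereas the design text names myometrium, the muscle layer. The design text speaks of many more biological replicates per day than the 3 arrays labelled here. How many animals each array represents is not stated, and a p-value here reflects array-to-array spread only, part of which may be technical.

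AP-1 subunits carry a basic region that contacts DNA and a leucine zipper through which they pair. Fos proteins pair with Jun proteins, Jun proteins can also pair with each other, and the pairs bind a short palindrome known as the TPA response element. In the uterus AP-1 is known for its part in the change of the smooth muscle from quiescence to contraction around labour, where Gja1, the gap junction protein connexin 43, is a known target. Fos, Fosb, Jun, Junb, Atf3 and Maff belong to the early genes, whose mRNA can rise within minutes of a stimulus and is short-lived.

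The share of probes detected per array was 43.6% to 46.5%, and median intensities before normalization ran from 75.8 to 105. Correlations between arrays across probes were 0.989 to 0.993 within a day and 0.946 to 0.961 between days, so no array stood apart from its day. All arrays lay on 1 chip and the days filled separate stretches of it, so day and position cannot be told apart. All 9 smooth muscle markers could be tested, 3 fell and none rose, against 13.4% of all genes called lower. The summed level of the 9 was 107993 to 121269 intensity units at day 15.5 and 111226 to 119483 at day 18.5. On the log2 scale Myocd fell by 2.38, Smtn by 0.52 and Lmod1 by 0.38, and 2 markers were called lower with any array left out. The sum barely reflects these falls, since it rests on bright markers such as Acta2, with means of 14.72 and 14.79 against an array maximum of 15.18. Levels below are normalized intensities on a log2 scale, and a difference is day 18.5 minus day 15.5. Levels of different genes come from different probes and are not set against each other.

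The promoters of Fos, Jun, Junb and Batf are shown because Fos had the largest difference and the widest spread of the subunits, the days did not overlap in Junb and Batf, and Jun is the main partner of Fos. Each is the 250 bases before the gene's start in RefSeq GRCm38.p6, read 5′ to 3′ along the gene. Fos lies at chr12:85473640-85473889 on the plus strand, Jun at chr4:95052223-95052472 on the minus strand, Junb at chr8:84978749-84978998 on the minus strand and Batf at chr12:85686470-85686719 on the plus strand. Capitals mark TGACG, the core of the cAMP response element, TGACATCA, a variant of the AP-1 site, and TATAAA, the box bound by the TATA-binding protein.
Fos: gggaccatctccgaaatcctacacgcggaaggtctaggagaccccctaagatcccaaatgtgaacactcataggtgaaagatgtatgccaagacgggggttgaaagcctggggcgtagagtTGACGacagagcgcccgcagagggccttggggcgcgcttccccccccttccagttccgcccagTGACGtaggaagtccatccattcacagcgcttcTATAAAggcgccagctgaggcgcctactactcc
Jun: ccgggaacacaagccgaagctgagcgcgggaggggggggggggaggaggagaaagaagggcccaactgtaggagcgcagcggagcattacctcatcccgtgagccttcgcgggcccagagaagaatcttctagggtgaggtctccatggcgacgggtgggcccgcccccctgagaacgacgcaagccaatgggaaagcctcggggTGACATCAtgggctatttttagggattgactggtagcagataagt
Junb: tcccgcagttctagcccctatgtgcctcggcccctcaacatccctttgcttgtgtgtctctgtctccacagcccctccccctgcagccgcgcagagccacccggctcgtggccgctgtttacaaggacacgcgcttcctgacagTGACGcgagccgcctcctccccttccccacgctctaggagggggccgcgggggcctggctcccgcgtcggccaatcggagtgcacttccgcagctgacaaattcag
Batf: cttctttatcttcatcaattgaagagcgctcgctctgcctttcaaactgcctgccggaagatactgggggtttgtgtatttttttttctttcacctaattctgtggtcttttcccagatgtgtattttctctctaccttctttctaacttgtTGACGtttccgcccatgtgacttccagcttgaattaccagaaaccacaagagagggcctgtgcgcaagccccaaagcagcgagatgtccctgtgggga
Motifs were searched on both strands in 32851 such windows of 27025 genes, 11 of them belonging to the 9 subunits. TGACG stood in 7 of the 11 subunit windows, belonging to Fos, Fosb, Junb, Atf3, Maff and Batf, and in 17.8% of all windows. The subunit windows held 46.4% (Batf) to 68.8% (Fosb) G and C, against a median of 52.4% over all windows. Base composition was not allowed for in any of these shares. In Fos 1 copy lay 66 to 62 bases before the start, ahead of TATAAA at 33 to 28 bases, which no other subunit's window held and 12.4% of all promoters did. The copies in Junb and Batf lay 106 to 102 and 98 to 94 bases before the start. TGACATCA lay 45 to 38 bases before the start of Jun and also occurred in a Maff window, against 2.93% of all promoters. The full cAMP response element TGACGTCA, which overlaps TGACG, occurred in Maff alone (1.55% of all promoters). The TPA response element TGACTCA (4.46%) and the CArG box (1.47%), the site of serum response factor, were not among the letters of these windows. Sites more than 250 bases before a start were not searched, so the genes may still hold them. GGGCGG, the GC box, stood in 8 of the 11 subunit windows, belonging to 7 subunits, and in 32.7% of all windows.

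Of the 9 AP-1 subunits, none was called higher at day 18.5 and 1, Batf, was called lower, by limma with a Benjamini-Hochberg adjusted p under 0.05 over all 14081 genes. Across all genes 26.1% were called, 12.7% higher and 13.4% lower. At an unadjusted p under 0.05 there were 3 subunits, Fos and Junb higher and Batf lower, against 38% of all genes. The days did not overlap in 2 subunits, Junb (higher) and Batf (lower), against 43.2% of all genes, 22.4% higher and 20.8% lower. The mean was higher at day 18.5 in 7 of the 9, which counts signs and tests nothing, against 52.2% of all genes. The median difference was 0.21 over the subunits and 0.02 over all genes, and the median size of the difference, sign aside, was 0.23 and 0.24.

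**Figure D1:**
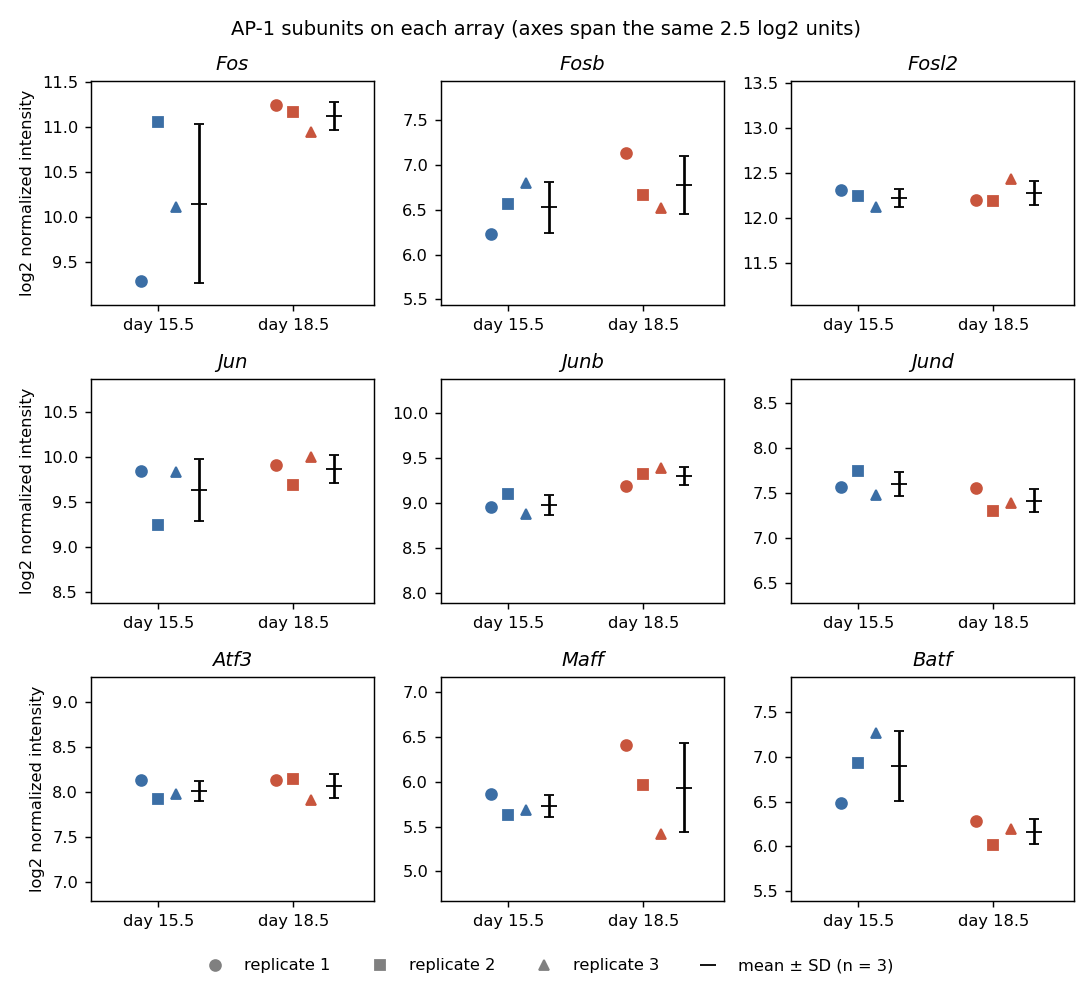
Log2 normalized intensity of the 9 AP-1 subunits on each of the 6 arrays, with the mean and SD of each day as a black bar beside the points. Batf was lower on all 3 arrays of day 18.5, while the 3 arrays of day 15.5 were far apart for Fos, from 9.28 to 11.06.

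Among the Fos proteins, which cannot pair with one another and depend on a Jun partner, Fos itself had the widest spread. Its level was 9.28, 11.06 and 10.11 on the 3 arrays of day 15.5 and 11.24, 11.17 and 10.94 on those of day 18.5. Replicate 2 of day 15.5 therefore lay within the range of day 18.5, and the other 2 arrays of day 15.5 below it. The means were 10.15 ± 0.89 (SD, n = 3) and 11.12 ± 0.16 (SD, n = 3). The difference was 0.97 (SE 0.36, 95% interval 0.15 to 1.79), or 1.96-fold, with an adjusted p of 0.0825 in limma, so it was not called. Only 8.29% of all genes had a difference this large. Without replicate 2 of day 15.5 it was 1.43 with an adjusted p of 0.00664, and without replicate 1 of that day 0.54 with an adjusted p of 0.181. With any of the other 4 arrays left out the adjusted p was 0.125 to 0.166. The authors' deposited table gives a ratio of 1.98 and a false discovery rate of 0.0813 for the same probe.

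The 3 arrays of day 15.5 spanned 3.43-fold in Fos and those of day 18.5 spanned 1.23-fold. Only 0.192% of all genes had a day 15.5 SD as large as that of Fos, against 43.8% for its day 18.5 SD. The unnormalized intensities showed the same order within each day, 820, 2315 and 1200 at day 15.5 and 2503, 2139 and 1611 at day 18.5. Each value rests on 41 to 53 beads, and the standard error over beads was 2.39% to 5.62% of the authors' normalized intensity, far below the spread between arrays (the scale of the bead error is not stated in the table). Across the subunits the day 15.5 SD exceeded that of day 18.5 in 5 of 9, against 55.0% of all genes, so the wide day 15.5 spread of Fos was not shared by the subunits as a set. Maff stood opposite, with a day 18.5 SD that 2.16% of all genes reached. Its signal was near background, however, with bead standard errors of 13.9% to 25.0%. On replicate 3 of day 18.5 it measured 5.42, against a lowest detected signal of 5.34.

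**Figure D2:**
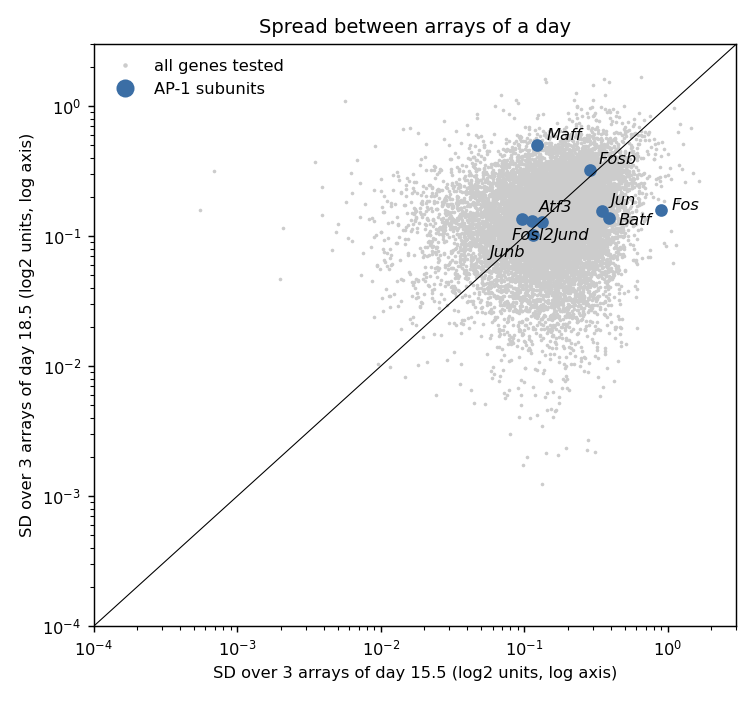
Each point is a gene, with the SD over the 3 arrays of day 15.5 on the horizontal axis and that of day 18.5 on the vertical axis, both in log2 units on log axes, and the line marks equal SDs (an SD of 0 cannot be drawn). Fos lies far to the right, at 0.89 and 0.16, and Maff, whose signal was near background, far above the line, at 0.12 and 0.50.

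Fosb, an early Fos relative, measured 6.23, 6.56 and 6.80 at day 15.5 and 7.14, 6.66 and 6.52 at day 18.5, so the days overlapped. Its difference was 0.24 (SE 0.20, 95% interval -0.20 to 0.69, adjusted p = 0.407, limma), which was 0.06 without replicate 1 of day 18.5 and 0.09 without replicate 1 of day 15.5. Fosl2, known as Fra-2 and a Fos relative lacking the strong activating region of Fos, measured 12.31, 12.24 and 12.12 at day 15.5 and 12.20, 12.19 and 12.43 at day 18.5. The 6 arrays thus lay close together, and the difference of 0.05 (SE 0.12, 95% interval -0.22 to 0.33, adjusted p = 0.794, limma) was small beside the spread between arrays. A pair of further Fosl2 probes was detected on no array.

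Among the Jun proteins, Junb, which can restrain Jun on many promoters, came closest to a call. Junb measured 8.96, 9.10 and 8.87 at day 15.5 and 9.19, 9.33 and 9.39 at day 18.5. All 3 later arrays were above all earlier ones. The means were 8.98 ± 0.12 (SD, n = 3) and 9.30 ± 0.10 (SD, n = 3), a difference of 0.32 (SE 0.12, 95% interval 0.05 to 0.60), or 1.25-fold, with an adjusted p of 0.0773 in limma. A second Junb probe, detected on no array, ran the other way, at 5.16, 5.15 and 5.25 and then 4.84, 4.87 and 4.76. In the authors' deposited table that undetected probe has a ratio of 0.600 and the smallest false discovery rate of the 13 probes, 0.0091, while the detected probe has a ratio of 1.26 and a rate of 0.235. The table thus lists Junb in both directions.

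Jun, the founding subunit, measured 9.84, 9.24 and 9.83 at day 15.5 and 9.91, 9.69 and 9.999 at day 18.5. The days overlapped, and the difference was 0.23 (SE 0.18, 95% interval -0.18 to 0.64, adjusted p = 0.389, limma), and 0.03 without replicate 2 of day 15.5. Its lowest array was replicate 2 of day 15.5, the array on which Fos was highest within that day. Jund, the most steadily expressed Jun protein in many tissues, measured 7.57, 7.74 and 7.47 at day 15.5 and 7.55, 7.30 and 7.39 at day 18.5. It was matched by accession, since the array spells it Jund1, and differed by -0.18 (SE 0.13, 95% interval -0.47 to 0.10, adjusted p = 0.329, limma).

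Atf3, Maff and Batf are further bZIP proteins, of which Atf3 and Batf pair with Jun proteins. Atf3, a stress-induced repressor, measured 8.14, 7.92 and 7.98 at day 15.5 and 8.14, 8.15 and 7.92 at day 18.5, a difference of 0.05 (SE 0.12, 95% interval -0.23 to 0.33, adjusted p = 0.791, limma). Maff, a small Maf protein without an activating region and known in human myometrium as a factor that binds the oxytocin receptor gene's promoter, measured 5.87, 5.63 and 5.69 at day 15.5 and 6.41, 5.97 and 5.42 at day 18.5. Its later arrays lay on both sides of the earlier ones and spanned 1.99-fold, and the difference was 0.21 (SE 0.22, 95% interval -0.30 to 0.71, adjusted p = 0.544, limma).

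Batf, a subunit lacking an activating region and best known from lymphocytes, where it pairs with Jun proteins, was the called subunit. It measured 6.48, 6.93 and 7.26 at day 15.5 and 6.28, 6.01 and 6.20 at day 18.5. Every later array lay below every earlier one, though replicate 1 of day 15.5 was close to replicate 1 of day 18.5. The means were 6.89 ± 0.39 (SD, n = 3) and 6.16 ± 0.14 (SD, n = 3). The level fell by 0.73 on the log2 scale (SE 0.19, 95% interval -1.16 to -0.30), or 1.66-fold lower, with an adjusted p of 0.0211 in limma. The authors' deposited table gives a ratio of 0.543 and a false discovery rate of 0.0237. The call was lost without replicate 2 or 3 of day 15.5 (adjusted p = 0.0680 and 0.0606, limma) and without replicate 2 or 3 of day 18.5 (0.0704 and 0.0513). The signal was low, with unnormalized intensities of 174, 193 and 218 and then 138, 112 and 105, and bead standard errors of 8.62% to 14.4%.

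**Figure D3:**
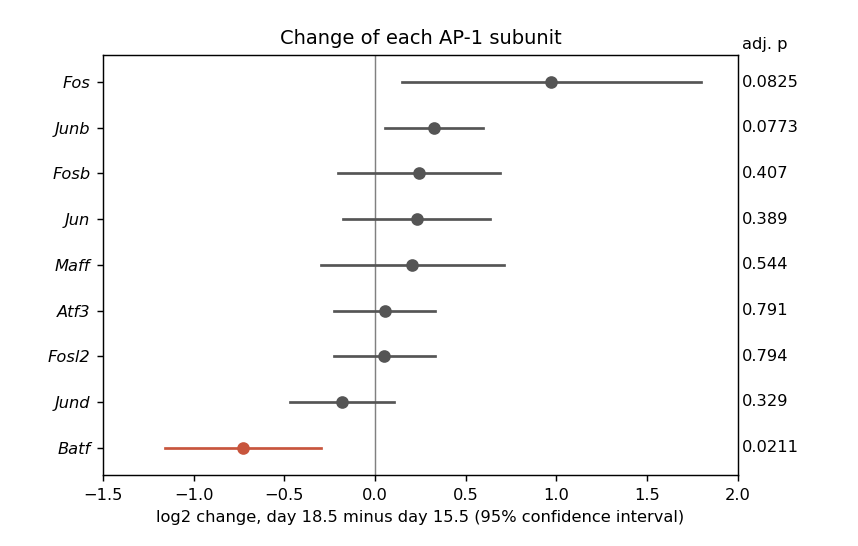
Log2 difference, day 18.5 minus day 15.5, of each AP-1 subunit with its 95% interval. The interval of Batf lies below 0, those of Fos and Junb lie above 0 although neither was called after adjustment over all genes, and the other 6 cross 0.

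Several lymphocyte and NK cell markers were lower at day 18.5, as Batf was. Of 17 listed markers 9 could be tested, 5 fell, 4 were not called and none rose, against 13.4% of all genes called lower. The summed level of the 9 was 5484 to 6670 intensity units at day 15.5 and 921 to 1131 at day 18.5. Prf1, the pore protein of killer cells, made up 76.6% to 80.9% of the sum at day 15.5, and the other 8 markers summed to 1062 to 1320 and then 513 to 529. Cd3g, a chain of the T cell receptor complex, measured 6.96, 7.35 and 7.57 and then 5.83, 5.82 and 6.001. Within day 15.5 its arrays stood in the order of Batf, as they did in Cd3e but in none of the other 7 tested markers. Prf1 fell by 3.20 on the log2 scale and Klrd1, an NK cell receptor, fell by 2.61. Ptprc, the pan-leukocyte CD45, fell by 0.87, whereas Cd3e differed by -0.05 (adjusted p = 0.870, limma). Cd4, Cd8a, Gzmb and Ms4a1 were detected on no array. The part of these cells in the Batf difference was not tested, and in bulk tissue fewer cells of a type and less RNA per cell cannot be told apart.

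**Figure D4:**
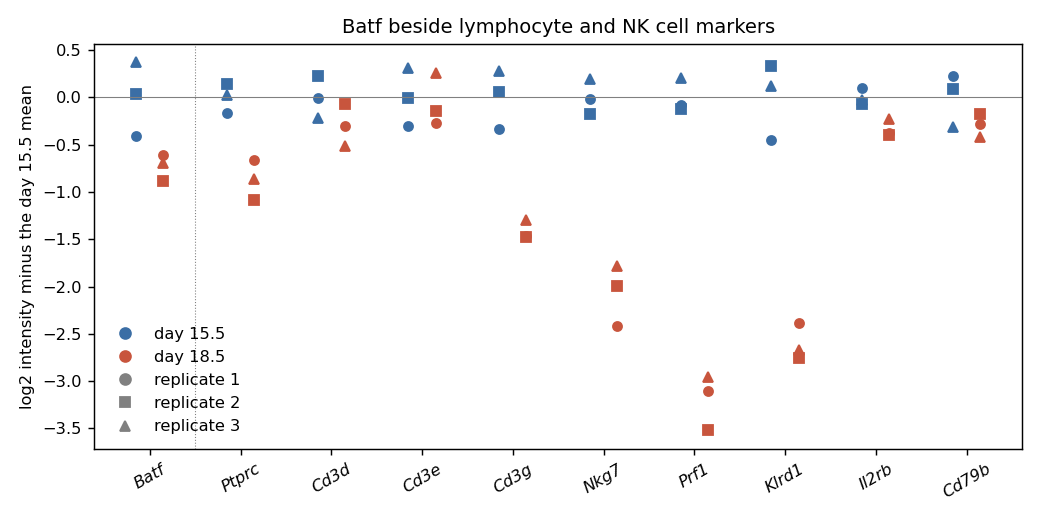
Log2 intensity of Batf and the 9 tested lymphocyte and NK cell markers on each array, relative to the gene's own day 15.5 mean. The Batf difference of -0.73 was smaller in size than those of Prf1 (-3.20), Klrd1 (-2.61) and Cd3g (-1.41), while Cd3d, Cd3e, Il2rb and Cd79b were not called.

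Markers of other cell types moved too, and their counts stand against 12.7% of all genes called higher and 13.4% called lower. Epithelial markers rose in 7 of 8 tested, with a summed level of 12294 to 19000 at day 15.5 and 35495 to 40359 at day 18.5, and Epcam was not detected. Myeloid markers rose in 2 of 9, with sums of 13803 to 17205 and 19214 to 19623, and in 1 of 9 without replicate 1 or 2 of day 15.5 or replicate 1 or 2 of day 18.5. Of these Cd14 rose by 1.54 and the dim S100a9 by 0.67, while 7 myeloid markers were not called. Trophoblast markers rose in 2 of 3, with sums of 88.9 to 192 and 2936 to 10064, while Tpbpa, Prl3d1, Ctsq, Hand1 and Gcm1 were detected on no array. The 2 that rose, Prl2a1 and Prl7b1, were detected on no array of day 15.5, so the day 15.5 sum includes undetected signal. Both passed the filter through day 18.5 alone, so the filter set their direction and the count of 2 of 3 tests nothing. Their rises are lower bounds, at least 31.8-fold and 95.4-fold. Of 3 decidual markers 2 rose, Wnt4 and Hand2, and 1 fell, Prl8a2, with sums of 2889 to 4973 and 1259 to 1942. The decidual sum rests mainly on the bright Prl8a2, with log2 means of 11.87 and 10.21, so its fall is that of 1 gene. Wnt4, with means of 6.32 and 7.98, rose by 1.66. Hand2 cleared the filter through its day 18.5 signal only, so the filter set its direction. Its rise of at least 1.72-fold is a lower bound. The part of these cell types in the differences of Fos and Junb was not tested.

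Other early genes were read beside Fos array by array, as a description. Replicate 1 of day 15.5 was the lowest array of its day for 11 of 14 tested early genes outside AP-1, against 33.3% of all genes. It was the lowest for 3 of 9 subunits, Fos, Fosb and Batf, the same share as over all genes. The same array was the highest of its day for 4 of 9 subunits, against 36.3% of all genes. Replicate 1 of day 18.5 was the highest of its day for 10 of the 14, against 32.5% of all genes, and for 5 of 9 subunits, which were Fos, Fosb, Jund, Maff and Batf. Egr1, an early zinc finger factor picked after its values were seen, measured 10.36, 10.91 and 11.06 at day 15.5 and 10.84, 9.95 and 10.46 at day 18.5, so it shared the low first array with Fos but was not higher at day 18.5.

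Among these 14 early genes 1 was called higher and 4 lower, with a median of -0.15. That makes 7.14% higher and 28.6% lower, against 12.7% and 13.4% of all genes. Egr2 fell by 1.12 (2.17-fold lower, adjusted p = 0.00242, limma), Klf2 by 0.95 (0.000955) and Zfp36, which destabilises AU-rich mRNAs, by 0.56 (0.00745). Ier3, named after its values were seen, fell by 0.44 (0.0446) and held its call in 4 of 14 alternatives, losing it with each of the 6 arrays left out in turn (0.0507 to 0.144). Klf4 rose by 0.43 (0.0210), a call lost without replicate 1 of day 15.5 (0.0537) or replicate 1 or 2 of day 18.5 (0.05005 and 0.0994). Ier2, Ier5, Nr4a1, Nr4a3, Btg2, Klf10 and Arc were detected on no array.

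Of 13 other bZIP factors tested, not all of them partners of AP-1 subunits, 2 rose and none fell, with a median of -0.00. The 15.4% called higher was near the 12.7% of all genes, of which 13.4% were called lower. Crem, a cAMP-responsive factor with activating and repressing forms, measured 7.75, 7.35 and 7.40 at day 15.5 and 8.18, 8.56 and 8.67 at day 18.5. It was 1.96-fold higher (adjusted p = 0.00255, limma), the same fold as Fos. The SD of Crem was smaller than that of Fos at day 15.5 (0.22 against 0.89) and larger at day 18.5 (0.26 against 0.16). With the mean of a gene's probes the difference was 0.79 in Crem and 0.97 in Fos. Bach2, a repressor that pairs with small Maf proteins, rose by 0.62 (adjusted p = 0.00980, limma). Jdp2, a repressor of AP-1 sites, differed by 0.17 (adjusted p = 0.418, limma). It is the only protein-coding gene between Fos and Batf on chromosome 12 in RefSeq GRCm38.p6, so the 3 neighbours showed differences of 0.97, 0.17 and -0.73.

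Upstream of AP-1, 2 of 18 tested kinases and inducing factors rose and 1 fell, with a median of 0.11. These shares, 11.1% higher and 5.56% lower, did not exceed the 12.7% and 13.4% of all genes. Mapk3, the kinase ERK1, rose by 0.71 (adjusted p = 0.00373, limma). Elk3, a partner of serum response factor, rose by 0.50 (0.0168), a call lost without replicate 2 of day 18.5 (0.0631). Prkca, protein kinase C alpha, fell by 0.55 (0.0206), a call lost without replicate 3 of day 15.5 (0.0617) or replicate 1 or 2 of day 18.5 (0.0606 and 0.0580). Srf, serum response factor itself, differed by -0.29 (0.110).

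The dual-specificity phosphatases, which switch MAP kinases off again, had 3 of 7 tested genes higher and none lower, with a median of 0.07. Across all genes 12.7% were called higher and 13.4% lower. Dusp4 rose by 0.94 (1.91-fold, adjusted p = 0.0107, limma), Dusp16 by 0.58 (0.0103) and Dusp6, which acts on ERK, by 0.46 (0.0324). The call of Dusp6 was lost without replicate 1 or 3 of day 15.5 (0.0881 and 0.0823) or replicate 1 or 2 of day 18.5 (0.0805 and 0.116). Dusp1 differed by -0.15 (0.642). Of 5 tested genes of Jun turnover and coactivation, Cops5, first described as a Jun coactivator, rose by 0.42 (0.0213), a call lost without replicate 2 of day 15.5 (0.0571) or replicate 1 or 2 of day 18.5 (0.0686 and 0.0936).

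Of 15 tested known AP-1 target genes, 4 rose and 5 fell, with a median of -0.18, so they did not move one way. The shares were 26.7% higher and 33.3% lower, against 12.7% and 13.4% of all genes. The receptor for oxytocin, Oxtr, passed detection on the day 18.5 arrays alone. It therefore entered the test only through the day on which it was high, and its place among the 4 carries that limit. Its day 18.5 signal was at least 4.33-fold higher, a bound set by the lowest detected signal. The matrix proteases Mmp10 and Mmp3 rose by 2.09 and 1.52 and Gja1 by 1.503. The genes that fell, named after their values were seen, were Spp1 (by 0.99), Ccnd1 (0.91), Timp1 (0.90), Hmox1 (0.44) and Vim (0.42). The call of Hmox1 was lost without replicate 2 of day 15.5 (0.0660) or replicate 1 or 2 of day 18.5 (0.0806 and 0.0998). That of Vim was lost without replicate 2 or 3 of day 15.5 (0.0742 and 0.124) and without each replicate of day 18.5 (0.0712, 0.108 and 0.0884). Il6, Ptgs2 and Ivl were detected on no array.

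**Figure D5:**
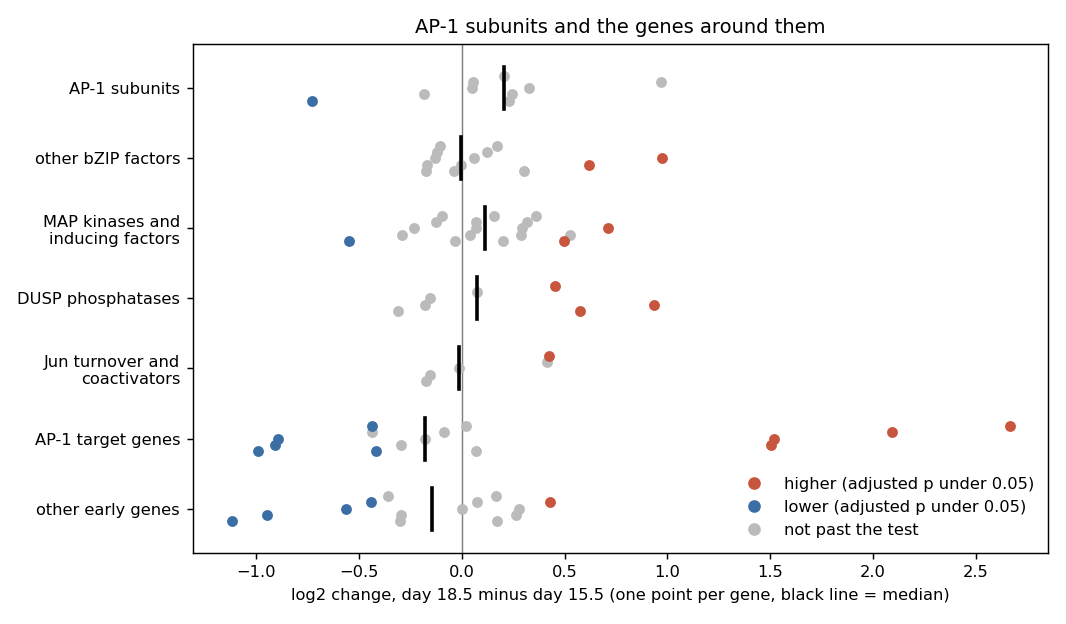
Log2 difference, day 18.5 minus day 15.5, of every tested gene in 7 lists, with called genes in colour and the list's median as a black line. The AP-1 subunits lie between -0.73 and 0.97 with only Batf called, whereas the target genes lie between -0.99 and 2.66, the highest being Oxtr, whose day 15.5 level is only a bound.

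The genes whose 6 values ran most like those of Fos were Usp7 (Pearson r = 0.998), LOC100045551 (0.996) and Tbc1d23 (0.989), none of them called. Usp7 measured 9.19, 9.62 and 9.41 at day 15.5 and 9.69, 9.65 and 9.62 at day 18.5, a narrower range than that of Fos, with its arrays in the order of Fos within each day. Those most like Batf were Ankrd40 (0.997), Gatm (0.995) and Clba1 (0.991), of which only Gatm was called, as lower. Gatm read 5.21, 4.79 and 5.21 at day 18.5, below the lowest detected signals of those arrays (5.52, 5.44 and 5.34). It thus passed the filter through day 15.5 alone, the day on which it was high. Neither the size of its fall nor a p-value is therefore given. Correlations of at least 0.9 were reached by 224 genes with Fos and 604 with Batf. All points of a gene share 6 arrays and a difference between days, so these likenesses describe the arrays and carry no test.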

How the data were processed

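RNA of the uterus was measured on 3 arrays per day. Per the file headers, the deposited unnormalized table holds an intensity and a detection p-value per probe. The authors' comparison table adds, per the file headers, normalized intensities, a bead count, the signal's standard error over beads, a ratio, and the q-value of that ratio as a false discovery rate. Software and background correction are not given in the sources used here. Ratios stood apart from their probes and were rejoined by symbol and value, within a relative tolerance of 1e-05.

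Intensities were processed with neqc (offset 16, quantile, log2) in limma 3.58.1 under R 4.3.3. Probes with a detection p under 0.05 on at least 3 arrays were kept (20701), and the brightest kept probe stood for each of 14081 genes. Days were compared with lmFit and eBayes, two-sided, with no block, Benjamini-Hochberg over all genes. The number of arrays limits the precision. The procedure was tested on simulated data. Where no array of a day detected a gene, its fold is a lower bound, computed against each array's lowest detected signal or the probe's own, whichever was higher.

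Names and promoters came from RefSeq GRCm38.p6 (26889 probes named by accession). All subunits, up to 4 called genes per list by adjusted p, and the 3 genes most like Fos and Batf are named. Members and lists were chosen with earlier results of these data known. Some list members are not reported here.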

Additional observations from a re-analysis of the deposited data

How the results depend on the processing

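The count of AP-1 subunits called higher was 0, and 1 (Fos) with no background correction or with an offset of 50 (adjusted p = 0.0460 and 0.0496, limma). It ranged from 0 to 1 when each array was left out in turn. The count called lower was 1 (Batf), 0 with no detection filter (adjusted p = 0.0582), and 0 to 1 with each array left out. Over 14 alternatives Batf stayed between -0.93 and -0.45 and was called in 9, Fos between 0.54 and 1.43 and called in 3, and Junb between 0.27 and 0.39 and called in none (adjusted p 0.0502 to 0.211). With an array left out, the uncalled differences ranged from -0.0267 to 0.0943 in Fosl2 (also -0.00075 without replicate 3 of day 15.5) and from -0.0346 to 0.462 in Maff, so both turned sign. They ranged from 0.03 to 0.33 in Jun, 0.06 to 0.38 in Fosb, 0.0069 to 0.13 in Atf3 and -0.25 to -0.11 in Jund. Maff had no value where detection p under 0.01 on all 6 arrays was asked. Over all genes 1289 to 1963 were called higher and 1423 to 2001 lower under the alternatives. Elk3 also lost its call with the mean of a gene's probes (0.110), and lymphocyte markers called lower numbered 5 or 6, except under the strict filter, which left 3 to test (2 called) and no trophoblast marker. Vim (0.0684) and Ier3 (0.0630) lost their calls with median scaling, and Ier3 also with the authors' values (0.0617) and no detection filter (0.0674). Myeloid markers called higher numbered 1 with the block or with no or the strict detection filter. For genes outside AP-1, running these alternatives was decided after seeing the data.

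Replicate numbers recur in both days, but deviations of same-numbered arrays correlated at -0.16, 0.15 and -0.06, so the numbers were not taken as pairs. With the replicate number as a block, 0 subunits were called higher and 1 lower, and over all genes 1551 higher and 1666 lower. Cops5 (adjusted p = 0.0564), Hmox1 (0.0574), Vim (0.0737) and Ier3 (0.0544) lost their calls with that block.

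Low signals limit Fosb, Maff and Batf, which lie near background.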
